A study of Mus musculus with 14 samples.

Results

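The genes described here are 37 macrophage genes, out of 50508 mouse gene symbols measured, in bulk RNA-sequencing libraries of sorted T cells. They were named by symbol, and some of them were selected on their high counts in the NK1.1+ or NK1.1- ILTCk libraries, so their levels in those libraries are a description and carry no test. The study concerns αβ innate-like killer T cells (ILTCk), their thymic progenitors (ILTCkP) and conventional T cells, in 5 groups of 2 libraries. The CD8SP (CD8 single-positive thymocytes) and ILTCkP libraries came from C57BL/6 mice, and the ILTCkP were sorted as CD4- or CD4-dull, CD8α- or CD8α-dull thymocytes that did not bind the CD1d tetramer. Libraries of PD1+ Tconv and of ILTCk sorted as NK1.1+ or NK1.1- came from mice labelled retrogenic, whose blood cells are rebuilt from stem cells given a T cell receptor gene. The NK1.1+ ILTCk gate was CD45+ TCRγδ- TCRβ+ CD4- CD8α+ PD-1- NK1.1+ on cells of digested tumours, and the PD1+ Tconv gate differed in taking PD-1+ NK1.1- cells. The tissue and gate of the NK1.1- ILTCk, the introduced receptors and the mice's ages were not stated in the sources used here. The titles call the sorted cells ILTCk where the cell type field says ILTCkP, and the titles were followed. Nothing says that the 2 libraries of a group came from separate animals, so p-values measure the spread between these libraries, which may be technical.

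Macrophages are phagocytes that settle in tissues and tumours, where they depend on signals through the receptor of colony-stimulating factor 1 and, in their development, on the transcription factor PU.1. They engulf dead cells and debris, break them down in lysosomes, secrete complement and chemokines, and shift between states: resident macrophages carry scavenging receptors, cells exposed to interleukin-4 secrete products such as RELMα, and lipid-loaded tumour macrophages carry APOE and TREM2. A T cell gate aims to leave them out, and T cells themselves transcribe few of these genes apart from broadly expressed lysosomal proteases and, in cytotoxic cells, Cx3cr1.

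The libraries held 16530085 to 32097301 counts and 17741 to 24559 genes with at least 1 count. All 15 genes of a T cell list (the CD3 chains, receptor constant segments, Lck, Zap70 and others) had counts in every library, from 0.0797% of all counts in NK1.1+ ILTCk replicate 2 to 1.53% in CD8SP replicate 1. NK1.1+ ILTCk replicate 2 stood apart from its group, where replicate 1 had 0.459%, and whether it holds the cells its label names cannot be told from the counts, which bears on every NK1.1+ mean and difference below. Levels below are counts per 1000000 of the TMM-scaled library size (CPM), with replicate 1 before replicate 2. The ILTCk libraries are called NK1.1- and NK1.1+ for short. Genes are ranked against each other only per kilobase of exon. Ratios of one gene or list to another use raw counts, without regard to length, and serve to compare libraries. The 4 thymic and the 6 retrogenic libraries are in separate tables and were scaled apart, so levels are not tested between them. At least 10 counts were found for 16 to 20 of the 37 genes in a thymic library, 30 to 31 in PD1+ Tconv and 35 to 37 in the ILTCk libraries.

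Sequences upstream of 4 of the genes are shown because their transcripts behaved in different ways across the libraries. C1qb and C1qc sit side by side and kept nearly constant proportions, while Retnla and Ccl8 are secreted products whose levels parted from each other. The sequences run 5′ to 3′ on the gene's strand and come from RefSeq promoter windows on GRCm38.p6, kept up to the gene start in both RefSeq and GENCODE M21. C1qb is at chr4:136886201-136886450 and C1qc at chr4:136893066-136893164, both on the minus strand, and Retnla is at chr16:48842359-48842550 and Ccl8 at chr11:82114935-82115184, both on the plus strand. Capitals mark matches to GAGGAA, the core bound by PU.1 (TTCCTC on the strand shown), or to TTGCNNAA, a C/EBP-type motif.
C1qb: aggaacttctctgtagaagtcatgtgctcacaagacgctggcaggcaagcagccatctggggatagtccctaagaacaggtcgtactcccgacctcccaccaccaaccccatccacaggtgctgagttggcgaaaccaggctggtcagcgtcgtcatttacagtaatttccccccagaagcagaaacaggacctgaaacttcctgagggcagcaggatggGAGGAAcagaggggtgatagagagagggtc
C1qc: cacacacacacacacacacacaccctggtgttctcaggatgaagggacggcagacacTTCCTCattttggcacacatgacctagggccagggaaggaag
Retnla: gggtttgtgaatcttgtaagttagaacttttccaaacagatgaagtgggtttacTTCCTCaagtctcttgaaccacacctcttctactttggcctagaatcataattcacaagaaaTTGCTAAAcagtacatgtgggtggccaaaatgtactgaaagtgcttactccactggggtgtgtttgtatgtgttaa
Ccl8: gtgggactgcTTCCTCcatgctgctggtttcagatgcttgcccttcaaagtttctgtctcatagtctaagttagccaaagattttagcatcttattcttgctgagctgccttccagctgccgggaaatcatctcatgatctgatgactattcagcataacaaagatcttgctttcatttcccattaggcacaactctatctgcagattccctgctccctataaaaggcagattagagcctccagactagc
RefSeq windows of 300 bases, from 250 before to 50 after a start, were found for 30 of the 37 genes, some with several starts, in 39 windows. On either strand, GAGGAA matched 20 of these 39 windows (51.3%), against 28.3% of 32851 windows of all genes. The matching windows of the members belonged to 17 of the 30 genes. All 4 genes shown above are among those 17, so they do not stand for the members without a match. TTGCNNAA matched 7 windows (17.9%), against 10.8% of all windows, and no match of one overlapped the other in the members' windows. A match describes letters in the window and is not a binding site.

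The 37 genes together took 0.873 and 0.657% of all counts in the NK1.1- libraries, 1.57 and 3.65 in the NK1.1+ libraries and 0.159 and 0.241 in PD1+ Tconv. In the thymus they took 0.107 and 0.104% in CD8SP and 0.151 and 0.120% in ILTCkP. The widest 95% Wilson interval of these shares reached 1.13% of its value to either side, and it covers counting error only. The NK1.1+ ILTCk libraries were thus the highest, with replicate 2 above replicate 1, the NK1.1- ILTCk libraries lay between, and PD1+ Tconv stood closest to the thymic libraries. In bulk libraries fewer cells of a type and less RNA per cell cannot be told apart, for macrophages and T cells alike. Ctsb and Ctsd, lysosomal proteases that many cell types make, supplied 90.6 and 90.4% of the 37 genes' counts in CD8SP and 73.3 and 45.6% in PD1+ Tconv, but 22.1 and 26.3% in the NK1.1- and 20.3 and 16.7% in the NK1.1+ libraries. The 19 genes under 1 CPM in every thymic library, a subset set after the values were seen, took 0.220 and 0.168% of counts in the NK1.1- libraries, 0.284 and 1.04 in the NK1.1+ libraries and 0.0127 and 0.0259 in PD1+ Tconv. This subset leaves out Csf1r, Spi1, C1qa and C1qb as well as Ctsb and Ctsd. Its genes were picked for low thymic levels, so nothing is read from the order of its shares.

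**Figure D1:**
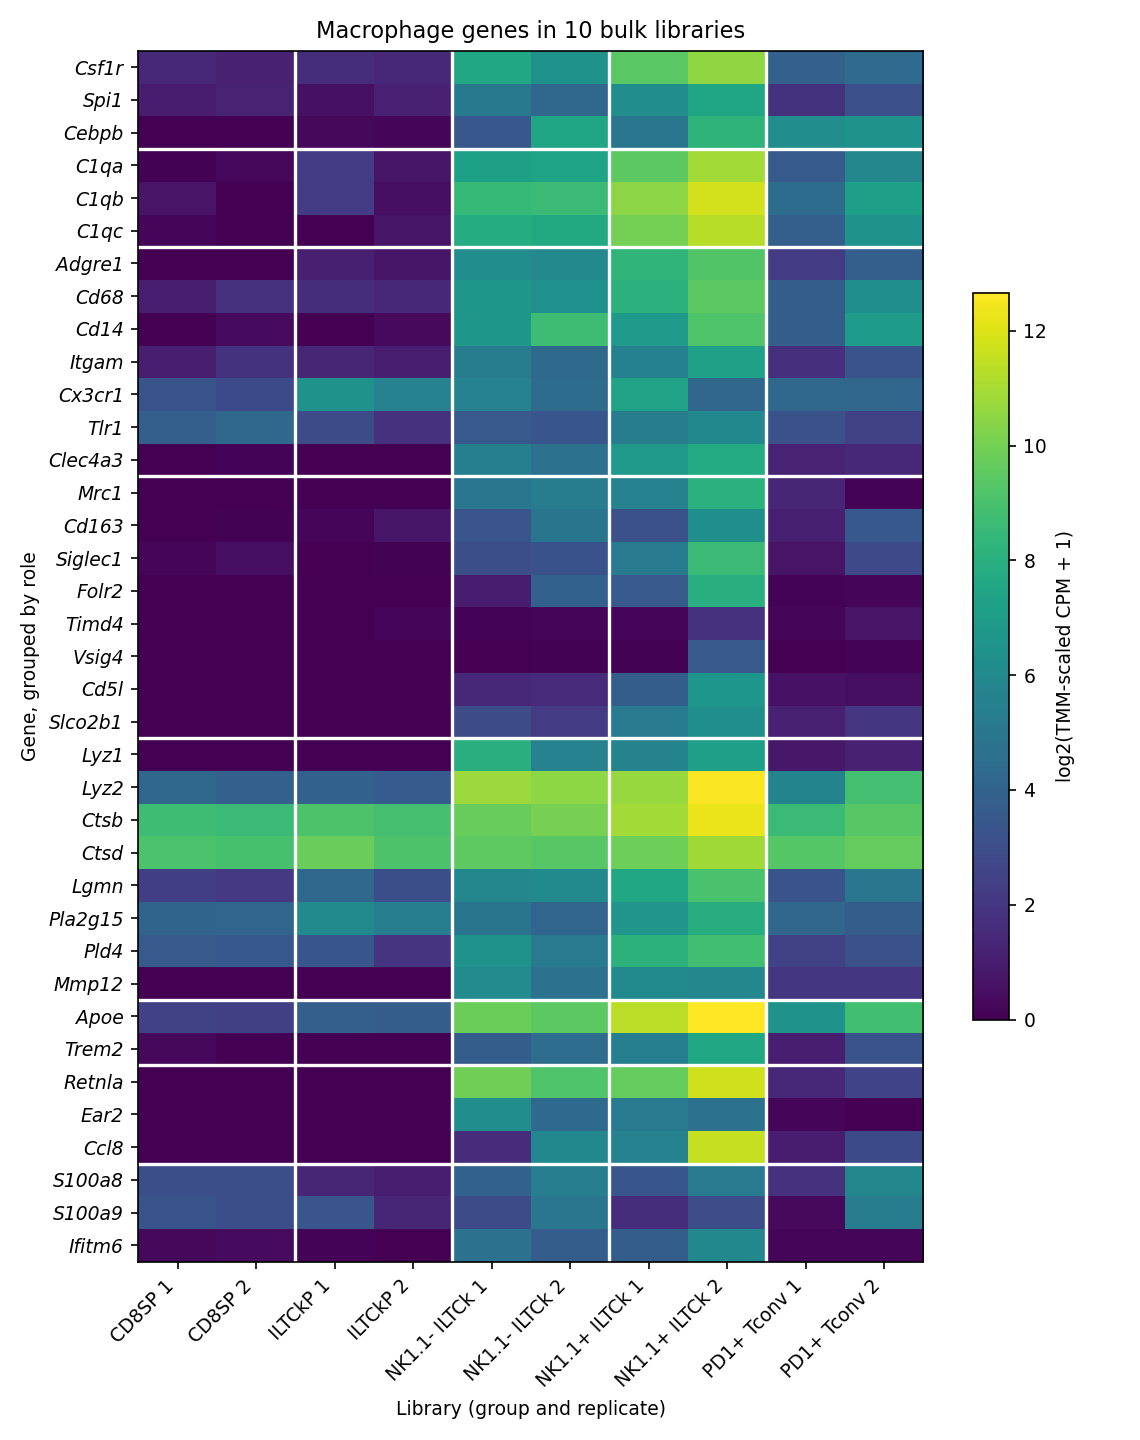
Heat map of log2(TMM-scaled CPM + 1) for the 37 macrophage genes (rows, separated by white lines into roles) in 10 libraries (columns, separated into groups); the thymic and the other 6 libraries were scaled apart. NK1.1+ ILTCk replicate 2 holds the highest level of the 6 retrogenic libraries for 31 of the 37 genes, and PD1+ Tconv replicate 1 the lowest for 28.

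Against T cell transcripts the contrast was wider. The 15 T cell genes took 0.292 and 0.174% of all counts in the NK1.1- libraries, 0.459 and 0.0797 in the NK1.1+ libraries and 0.872 and 0.397 in PD1+ Tconv, and 1.53 and 1.43% in CD8SP. For every count of a T cell gene there were 2.99 and 3.78 counts of the 37 genes in the NK1.1- libraries, 3.42 and 45.7 in the NK1.1+ libraries and 0.182 and 0.607 in PD1+ Tconv, against 0.0700 and 0.0725 in CD8SP and 0.150 and 0.115 in ILTCkP. Lyz2, the lysozyme of myeloid cells, gave 8.33 and 17.2 counts per Cd3e count in the NK1.1- libraries, 3.52 and 70.5 in the NK1.1+ libraries and 0.0532 and 1.38 in PD1+ Tconv, where Cd3e encodes a CD3 chain of the T cell receptor complex. In NK1.1+ ILTCk replicate 2, Lyz2 therefore outnumbered Cd3e by the most, and in all 4 thymic libraries Lyz2 gave 0.0108 to 0.0144 counts per Cd3e count. The shares of macrophage and T cell transcripts did not move strictly in opposite directions. NK1.1+ ILTCk replicate 1 and PD1+ Tconv replicate 2 had T cell shares of 0.459% and 0.397%, yet macrophage shares of 1.57% and 0.241%. Within NK1.1- ILTCk, replicate 1 had the higher share of both. Shares of 1 library are parts of the same total, so no test was made across libraries.

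**Figure D2:**
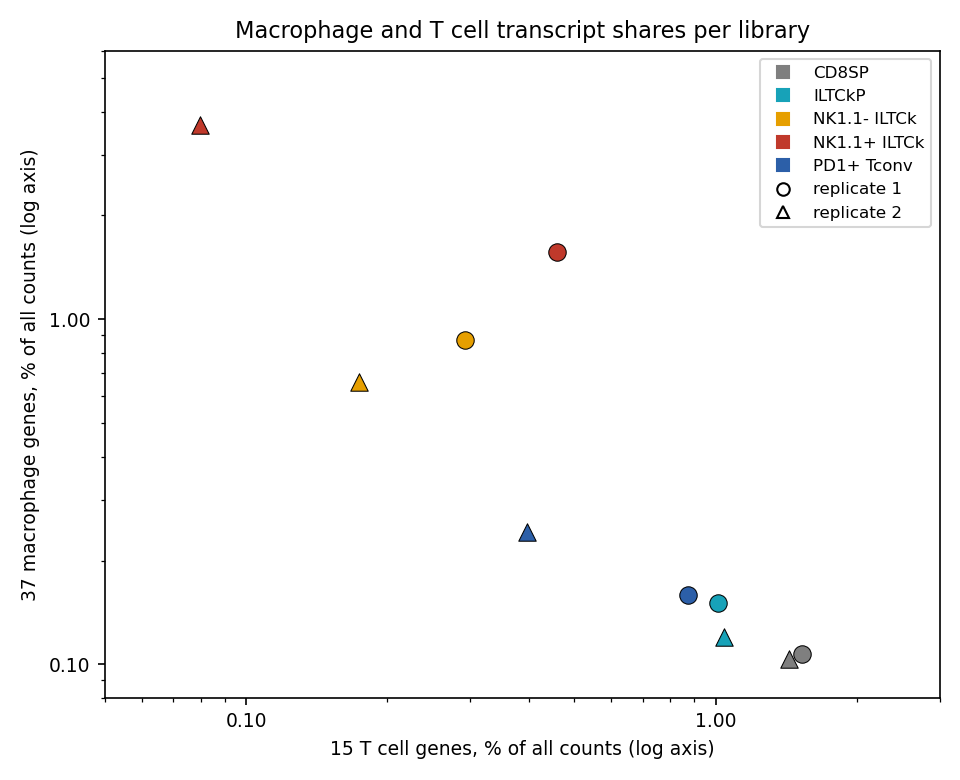
Share of all counts taken by the 37 macrophage genes (y axis, %, log scale) against that of 15 T cell genes (x axis, %, log scale), with 1 point per library, colour for group and shape for replicate. NK1.1+ ILTCk replicate 2 lies at the upper left (3.65% macrophage, 0.0797% T cell), and the thymic libraries lie at the lower right with 0.104% to 0.151% macrophage.

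Csf1r, the receptor for colony-stimulating factor 1 that macrophages need to survive, was at 192 and 88.9 CPM in the NK1.1- libraries, 689.6 and 1495 in the NK1.1+ libraries and 13.9 and 20.4 in PD1+ Tconv. All 4 ILTCk libraries were above both PD1+ Tconv libraries, and both NK1.1+ libraries were above both NK1.1- libraries. The log2 difference was 5.99 ± 0.71 (SE) between NK1.1+ ILTCk and PD1+ Tconv and 2.96 ± 0.62 between NK1.1+ and NK1.1- ILTCk, given as descriptions. Spi1, which encodes PU.1, followed the same order at 33.3 and 18.6 CPM in the NK1.1- libraries, 72.7 and 176 in the NK1.1+ libraries and 2.64 and 7.62 in PD1+ Tconv. Cebpb, a C/EBP factor of monocytes and macrophages that many other cells also induce, did not: it was at 10.0 and 176 CPM in the NK1.1- libraries, 30.2 and 296 in the NK1.1+ libraries and 73.6 and 87.4 in PD1+ Tconv. The replicate numbered 1 was low and that numbered 2 high in both ILTCk groups, and the PD1+ Tconv libraries lay between. In the thymus Csf1r was at 1.69 and 1.20 CPM in CD8SP and 2.13 and 1.69 in ILTCkP, and Cebpb had at most 5 counts in a library.

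C1qa, C1qb and C1qc encode the chains of C1q, the recognition molecule of the classical complement pathway, which tissue macrophages secrete. The genes are neighbours on the minus strand of chromosome 4 (GRCm38): C1qb at chr4:136880129-136886187, C1qc at chr4:136889804-136893065 and C1qa at chr4:136895917-136898803. C1qa was at 145 and 163 CPM in the NK1.1- libraries, 708 and 1924 in the NK1.1+ libraries and 10.99 and 56.4 in PD1+ Tconv. C1qb was at 360.2 and 389 CPM in the NK1.1- libraries, 1428 and 3578 in the NK1.1+ libraries and 21.2 and 140.0 in PD1+ Tconv. C1qc was at 227 and 209 CPM in the NK1.1- libraries, 1038 and 2511 in the NK1.1+ libraries and 13.2 and 90.6 in PD1+ Tconv. For each of the 3 genes NK1.1+ replicate 2 was highest, then NK1.1+ replicate 1, the NK1.1- libraries and PD1+ Tconv, with no overlap between groups. The proportions of the chains hardly moved: C1qb gave 1.86 to 2.49 counts and C1qc 1.20 to 1.61 counts per C1qa count in the 6 retrogenic libraries, while C1qa itself ran from 345 to 42624 counts. The log2 difference between NK1.1+ ILTCk and PD1+ Tconv was 5.29 ± 0.96 for C1qa, 4.96 ± 1.02 for C1qb and 5.10 ± 1.02 for C1qc. Per kilobase of exon, C1qb averaged 2301 CPM in the NK1.1+ group, 344 in the NK1.1- group and 74.1 in PD1+ Tconv.

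Among the surface markers, Adgre1, which encodes F4/80, was at 72.1 and 61.2 CPM in the NK1.1- libraries, 307 and 588 in the NK1.1+ libraries and 3.76 and 13.4 in PD1+ Tconv. Cd68, a membrane protein of macrophage lysosomes, was at 103 and 82.0 CPM in the NK1.1- libraries, 269 and 719 in the NK1.1+ libraries and 12.2 and 78.1 in PD1+ Tconv. Itgam, the CD11b integrin chain of myeloid cells, was at 38.3 and 19.6 CPM in the NK1.1- libraries, 46.4 and 150.1 in the NK1.1+ libraries and 2.36 and 8.84 in PD1+ Tconv. For these 3 genes both NK1.1+ libraries were above both NK1.1- libraries, and those above both PD1+ Tconv libraries. Clec4a3, a C-type lectin receptor from a family of similar genes, was at 42.9 and 26.3 CPM in the NK1.1- libraries, 109.6 and 218 in the NK1.1+ libraries and 1.34 and 1.78 in PD1+ Tconv, the widest gap from PD1+ Tconv within this role, with a log2 difference of 6.73 ± 0.61 for NK1.1+ ILTCk. Cd14, a co-receptor for bacterial lipopolysaccharide, was instead at 101 and 422 CPM in the NK1.1- libraries, 110.5 and 573 in the NK1.1+ libraries and 12.3 and 123 in PD1+ Tconv, so that replicate 2 was the higher in every group and PD1+ Tconv replicate 2 overlapped the ILTCk libraries. Cx3cr1, the fractalkine receptor that cytotoxic lymphocytes as well as monocytes and macrophages use, broke the order of the others. It was at 47.2 and 21.5 CPM in the NK1.1- libraries, 155 and 16.9 in the NK1.1+ libraries and 18.1 and 16.9 in PD1+ Tconv, with NK1.1+ ILTCk replicate 2, the library richest in the other macrophage genes, level with PD1+ Tconv. Tlr1, which pairs with TLR2 to detect bacterial lipopeptides, was at 10.6 and 9.53 CPM in the NK1.1- libraries, 40.0 and 58.2 in the NK1.1+ libraries and 7.96 and 4.70 in PD1+ Tconv, and the thymic CD8SP libraries had 13.4 and 17.6 CPM.

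The 8 genes grouped as scavenging and uptake genes of resident macrophages, most of them receptors, were highest in NK1.1+ ILTCk replicate 2, as 31 of the 37 genes were. Per Csf1r count it was the highest of the 4 ILTCk libraries for Siglec1, Folr2, Vsig4 and Cd5l. It was not for Mrc1, Cd163, Timd4 and Slco2b1. Siglec1, a sialic-acid-binding receptor of lymph node and tissue macrophages, was at 7.23 and 7.98 CPM in the NK1.1- libraries, 35.9 and 396 in the NK1.1+ libraries and 0.573 and 5.84 in PD1+ Tconv. Folr2, a folate receptor of resident macrophages, was at 0.975 and 14.005 CPM in the NK1.1- libraries, 10.6 and 248 in the NK1.1+ libraries and 0.0956 and 0.162 in PD1+ Tconv; the PD1+ Tconv values stand for 3 and 2 counts. The ILTCk groups overlapped for Folr2, since NK1.1- ILTCk replicate 2 was above NK1.1+ ILTCk replicate 1. Mrc1, the mannose receptor CD206, was at 29.9 and 38.7 CPM in the NK1.1- libraries, 47.9 and 271 in the NK1.1+ libraries and 1.59 and 0.0811 in PD1+ Tconv, with 1 count in PD1+ Tconv replicate 2. Cd163, the scavenger of haemoglobin-haptoglobin complexes, was at 9.12 and 29.6 CPM in the NK1.1- libraries, 7.78 and 77.3 in the NK1.1+ libraries and 1.15 and 10.3 in PD1+ Tconv, and PD1+ Tconv replicate 2 overlapped the ILTCk libraries. For Siglec1 and Mrc1, by contrast, all 4 ILTCk libraries were above both PD1+ Tconv libraries. Cd5l, a secreted protein of resident macrophages, was at 1.77 and 1.96 CPM in the NK1.1- libraries, 12.5 and 99.7 in the NK1.1+ libraries and 0.510 and 0.405 in PD1+ Tconv. Slco2b1, an organic anion transporter, was at 6.53 and 3.56 CPM in the NK1.1- libraries, 35.8 and 76.8 in the NK1.1+ libraries and 1.24 and 3.00 in PD1+ Tconv. For both genes the groups did not overlap. Vsig4, a complement receptor of resident macrophages, had 239 counts (10.8 CPM) in NK1.1+ ILTCk replicate 2 and at most 1 count in each of the other 9 libraries. Its count of 0 in NK1.1- ILTCk replicate 1 allows up to 0.0885 CPM (3 counts). Timd4, a phosphatidylserine receptor of long-lived resident macrophages, had 54 counts in the same library and 3 to 7 in the other 5 retrogenic libraries. The summed CPM of these 8 genes was 55.6 and 96.0 in the NK1.1- libraries, 151 and 1182 in the NK1.1+ libraries and 5.29 and 20.4 in PD1+ Tconv.

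Lyz2 was at 1705 and 1440 CPM in the NK1.1- libraries, 1689 and 6203 in the NK1.1+ libraries and 51.2 and 463 in PD1+ Tconv. NK1.1+ ILTCk replicate 1 was within the range of the NK1.1- ILTCk libraries for this gene, although its Csf1r was higher than theirs. Lyz1, the neighbouring lysozyme gene (chr10:117287797-117292868, beside Lyz2 at chr10:117277331-117282321), was at 244 and 48.4 CPM in the NK1.1- libraries, 50.1 and 142 in the NK1.1+ libraries and 0.764 and 1.22 in PD1+ Tconv, highest in NK1.1- ILTCk replicate 1. Lyz1 supplied 12.5% of the counts of the pair in that library and 0.262% to 3.25% in the other 5 retrogenic libraries, with 0 counts in all 4 thymic libraries. The genes are near-identical, so reads may have been split between them in a way that the counts do not show. Ctsb, cathepsin B, was at 854 and 1087 CPM in the NK1.1- libraries, 1904 and 5040.2 in the NK1.1+ libraries and 397 and 662 in PD1+ Tconv, and at 416 and 393 CPM in CD8SP and 557 and 489 in ILTCkP. Ctsd, cathepsin D, was at 744 and 657 CPM in the NK1.1- libraries, 927 and 1856 in the NK1.1+ libraries and 646 and 814 in PD1+ Tconv. For Ctsd the NK1.1- ILTCk libraries overlapped PD1+ Tconv, and the log2 difference was -0.06 ± 0.49.

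Lgmn, a lysosomal endopeptidase, was at 57.8 and 66.1 CPM in the NK1.1- libraries, 188 and 528 in the NK1.1+ libraries and 8.66 and 30.4 in PD1+ Tconv. Pld4, a lysosomal exonuclease of macrophages and dendritic cells, was at 88.3 and 37.4 CPM in the NK1.1- libraries, 276 and 454 in the NK1.1+ libraries and 4.36 and 7.78 in PD1+ Tconv. Pla2g15, the lysosomal phospholipase A2, was at 29.3 and 16.3 CPM in the NK1.1- libraries, 94.8 and 237 in the NK1.1+ libraries and 17.2 and 12.4 in PD1+ Tconv. Both NK1.1+ libraries were above both NK1.1- libraries for these 3 genes, but for Pla2g15 NK1.1- ILTCk overlapped PD1+ Tconv. Mmp12, the macrophage elastase, was at 67.0 and 26.7 CPM in the NK1.1- libraries, 66.6 and 56.5 in the NK1.1+ libraries and 2.96 and 3.00 in PD1+ Tconv, and had 0 counts in the thymus. For Mmp12 the 2 ILTCk groups overlapped and both lay above PD1+ Tconv.

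Apoe, an apolipoprotein of macrophages and liver found in particles that carry cholesterol, was at 906 and 716 CPM in the NK1.1- libraries, 2602 and 6467 in the NK1.1+ libraries and 89.2 and 455 in PD1+ Tconv. Trem2, a lipid-sensing receptor of macrophages, was at 12.5 and 22.0 CPM in the NK1.1- libraries, 43.7 and 194 in the NK1.1+ libraries and 1.11 and 8.84 in PD1+ Tconv. Both genes kept the order of groups seen for C1q, with no overlap. The log2 difference between NK1.1+ and NK1.1- ILTCk was 2.48 ± 0.86 for Apoe and 2.79 ± 1.05 for Trem2.

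Retnla encodes RELMα, a protein that macrophages secrete in response to interleukin-4. It was at 965 and 579.7 CPM in the NK1.1- libraries, 826 and 3454 in the NK1.1+ libraries and 1.66 and 4.86 in PD1+ Tconv, and had 0 counts in all 4 thymic libraries. Per kilobase it had the highest group mean of the 37 genes in both ILTCk groups, at 1289 CPM in NK1.1- and 3573 in NK1.1+ ILTCk, while Ctsd had the highest in PD1+ Tconv at 310.5. The rank of the means did not hold in every library. Lyz2 was above Retnla in NK1.1- replicate 2 (1094 against 968 CPM per kilobase) and above Ctsd in PD1+ Tconv replicate 2 (352 against 346), and Ccl8 was above Retnla in NK1.1+ replicate 2 (5865 against 5767). Ear2, a ribonuclease from a family of near-identical genes whose counts may be split among copies, was at 73.5 and 18.8 CPM in NK1.1- ILTCk and 35.1 and 25.3 in NK1.1+ ILTCk, with 4 and 0 counts in PD1+ Tconv. Ccl8, a chemokine that recruits cells through CCR8 in mice, was at 2.01 and 59.4 CPM in the NK1.1- libraries, 48.0 and 2997 in the NK1.1+ libraries and 1.02 and 6.16 in PD1+ Tconv. Replicate 2 was far above replicate 1 in each ILTCk group, the ILTCk groups overlapped, and NK1.1- ILTCk replicate 1 was below PD1+ Tconv replicate 2. Mrc1, Folr2, Vsig4, Cd5l, Lyz1, Mmp12, Retnla, Ear2 and Ccl8 were the 9 genes with 0 counts in all 4 thymic libraries, which allows up to 0.0919 to 0.118 CPM in each.

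S100a8 and S100a9 form calprotectin, an abundant protein of neutrophils and monocytes. S100a8 was at 14.2 and 41.7 CPM in the NK1.1- libraries, 9.52 and 37.3 in the NK1.1+ libraries and 2.55 and 55.5 in PD1+ Tconv. S100a9 was at 6.73 and 30.2 CPM in the NK1.1- libraries, 2.15 and 6.86 in the NK1.1+ libraries and 0.255 and 39.0 in PD1+ Tconv. Their highest value was in PD1+ Tconv replicate 2, the groups overlapped, and neither followed Csf1r. Of 12 further neutrophil genes, Cxcr2 and Ly6g, which define mature neutrophils, were at most 1.55 and 0.593 CPM in these 6 libraries. Retnlg, Mmp8 and Stfa2l1 of that list gave 20.2, 16.3 and 4.76 counts per 100 Csf1r counts in PD1+ Tconv replicate 2. These were their highest ratios of the 6 libraries, and Csf1r had its lowest count there (252). The ratios of Cxcr2 and Ly6g were highest in NK1.1- replicate 2. Csf3r, the receptor for granulocyte colony-stimulating factor, was at 7.12 and 6.16 CPM in the NK1.1- libraries, 23.9 and 69.7 in the NK1.1+ libraries and 1.34 and 6.16 in PD1+ Tconv, and Mmp9, a gelatinase of neutrophils and macrophages, reached 26.4 CPM in NK1.1+ replicate 2, so these 2 were highest in the library highest in most macrophage genes. Ltf, which glandular epithelium also secretes, supplied most of that list, at 554 and 149 CPM in the NK1.1- libraries, 736 and 137 in the NK1.1+ libraries and 47.1 and 50.7 in PD1+ Tconv. Ifitm6, an interferon-induced transmembrane gene of monocytes and macrophages, was at 25.4 and 12.3 CPM in NK1.1- ILTCk and 12.2 and 58.4 in NK1.1+ ILTCk, and had 5 and 2 counts in PD1+ Tconv.

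Over both replicates, 29 genes were higher in both NK1.1+ ILTCk libraries than in both PD1+ Tconv libraries, of 35 that passed the filter on low counts (Timd4 and Vsig4 did not). Of all 18091 genes tested, 20.7% were. For NK1.1- ILTCk over PD1+ Tconv the count was 27, beside 23.1% of all genes, and for NK1.1+ over NK1.1- ILTCk it was 21, beside 18.6%. None of the members was lower in both libraries in any of the 3 comparisons, beside 20.8%, 22.7% and 18.9% of all genes. The median log2 difference of the members was 4.62, 2.07 and 2.26 in that order, and that of all genes -0.04, -0.04 and 0.01. Some of the genes were picked for high counts in the ILTCk libraries, so nothing is read from these counts, and the comparisons share libraries.

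Each gene was also set against Csf1r in the same library. For genes that T cells or tumour cells also transcribe, this ratio still depends on the amount of macrophage transcripts. Over the 4 ILTCk libraries the counts per 100 Csf1r counts varied 5.95-fold in the median of the 35 members with counts in all 4. They varied under 2-fold for 6 genes and over 10-fold for 11. Those 6 were Spi1, C1qc, Adgre1, Slco2b1, Pla2g15 and Pld4. Pla2g15 gave 15.2 and 18.4 in the NK1.1- and 13.7 and 15.8 in the NK1.1+ libraries. Pld4 gave 45.9 and 42.1 in the NK1.1- and 40.1 and 30.4 in the NK1.1+ libraries. Adgre1 gave 37.5 and 68.8 in the NK1.1- and 44.5 and 39.4 in the NK1.1+ libraries. In the 4 ILTCk libraries these genes kept close to Csf1r while Csf1r itself ran from 88.9 to 1495 CPM. With C1qa as the reference, C1qc and Adgre1 varied 1.22- and 1.63-fold over these libraries. Spi1, Slco2b1, Pla2g15 and Pld4 varied 2.51-, 2.31-, 2.02- and 2.66-fold. In PD1+ Tconv, Pla2g15 gave 124 and 60.7 per 100 Csf1r counts.

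Lyz1, Ear2, Mmp12, Ifitm6, Retnla and Lyz2 were higher per Csf1r count in both NK1.1- ILTCk libraries than in both NK1.1+ ILTCk libraries. Lyz1 gave 127 and 54.5 in the NK1.1- and 7.26 and 9.50 in the NK1.1+ libraries, per 100 Csf1r counts as for all genes here. Ear2 gave 38.2 and 21.1 in the NK1.1- and 5.09 and 1.69 in the NK1.1+ libraries. Mmp12 gave 34.9 and 30.0 in the NK1.1- and 9.66 and 3.78 in the NK1.1+ libraries. For these 3 secreted enzymes the 2 groups lay apart, with the NK1.1- libraries above. Ifitm6 gave 13.2 and 13.8 in the NK1.1- and 1.78 and 3.90 in the NK1.1+ libraries. Retnla gave 502 and 652 in the NK1.1- and 119.8 and 231 in the NK1.1+ libraries. Lyz2 gave 887 and 1619.7 in the NK1.1- and 245 and 415 in the NK1.1+ libraries. In all, 18 of the 36 other members were above in both NK1.1- libraries, 1 below in both (Slco2b1) and 17 overlapped. Of all 18090 genes tested, 93.5% were above per Csf1r count and 0.0829% below. Lying above is thus the common case over all genes, less frequent among the members, and nothing is read from these counts. With C1qa as the reference the members' numbers were 21, 2 and 13, with Slco2b1 among those that overlapped, beside 92.0% and 0.0442% of all genes. Ctsd, which T cells also transcribe, gave 387 and 739 in the NK1.1- and 134 and 124 in the NK1.1+ libraries, and the part of T cell or tumour cell transcripts in these ratios was not tested.

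For some genes the replicates rather than the groups lay apart when taken per Csf1r count. Ccl8 gave 1.04 and 66.9 in the NK1.1- and 6.97 and 201 in the NK1.1+ libraries. Folr2 gave 0.507 and 15.8 in the NK1.1- and 1.54 and 16.6 in the NK1.1+ libraries. Cd163 gave 4.74 and 33.3 in the NK1.1- and 1.13 and 5.17 in the NK1.1+ libraries. Replicate 2 was the higher in both ILTCk groups for these 3 genes, as it was for Siglec1, with 3.76 and 8.98 in the NK1.1- and 5.204 and 26.5 in the NK1.1+ libraries. It was so for other members too, such as C1qa, with 75.2 and 183 in the NK1.1- and 103 and 129 in the NK1.1+ libraries. The share of all genes that split this way was not counted. Per 100 C1qa counts, Ccl8 and Folr2 kept the split. Siglec1 then gave 5.01 and 4.90 in the NK1.1- libraries, and Cd163 was higher in both NK1.1- than in both NK1.1+ libraries. Cx3cr1 gave 24.5 and 24.2 in the NK1.1- and 22.5 and 1.13 in the NK1.1+ libraries, so it was steady in 3 libraries and low in NK1.1+ ILTCk replicate 2.

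**Figure D3:**
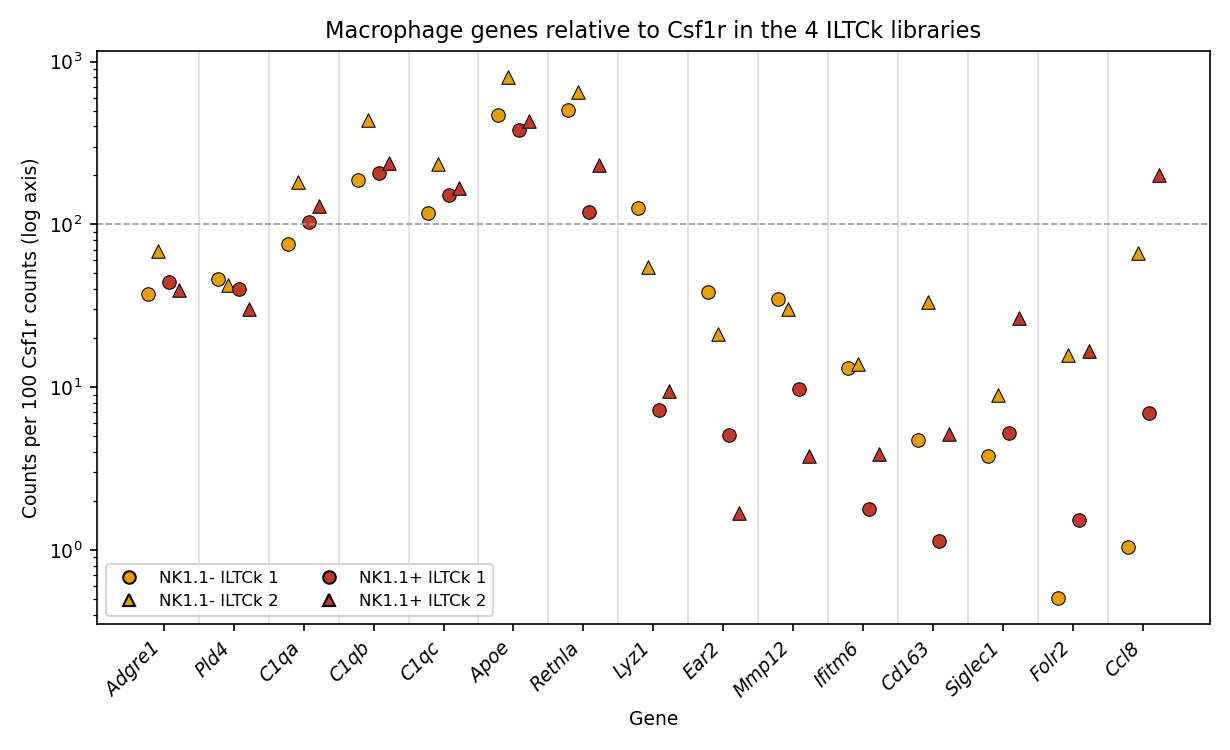
Counts of 15 macrophage genes per 100 Csf1r counts (y axis, log scale; dashed line at 100) in the 4 ILTCk libraries, coloured by group and shaped by replicate. Lyz1, Ear2, Mmp12 and Ifitm6 lie higher in NK1.1- than in NK1.1+ ILTCk (Lyz1 at 54.5 or more against 9.50 or less), whereas Folr2 and Ccl8 split replicate 2 from replicate 1 in both groups.

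The stated selection on high counts used the ILTCk libraries, and the members were tested in the thymus, ILTCkP against CD8SP. The test was edgeR's quasi-likelihood test with Benjamini-Hochberg adjustment over 14634 genes. All the genes were chosen with earlier results of these data known, so a choice free of the thymic values cannot be shown. Of the 37 genes, 18 passed the filter on low counts. Cx3cr1 was at 8.93 and 6.27 CPM in CD8SP and 85.2 and 47.4 in ILTCkP, and rose by 3.12 ± 0.42 (log2 ± SE, adjusted p = 0.0185). Pla2g15 was at 15.996 and 16.5 CPM in CD8SP and 64.3 and 41.7 in ILTCkP, and rose by 1.70 ± 0.33 (adjusted p = 0.0491). S100a8 was at 7.10 and 7.28 CPM in CD8SP and 1.58 and 1.103 in ILTCkP, with a log2 change of -2.42 ± 0.48 (adjusted p = 0.0490), so it was lower in ILTCkP. In each case both libraries of one group lay above both of the other, as they did for 28.8% (ILTCkP higher) and 29.3% (lower) of all genes. Among all genes 3.38% were called higher and 1.33% lower. Without CD8SP replicate 1 the adjusted p of Pla2g15 became 0.231 and that of S100a8 0.195, and without CD8SP replicate 2 they became 0.257 and 0.185.

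The other 15 tested members did not pass. C1qa had 2 and 6 counts in CD8SP and 97 and 21 in ILTCkP (log2 4.05 ± 1.19, adjusted p = 0.126). Adgre1 had 1 and 0 counts against 29 and 21 (log2 5.42 ± 1.34, adjusted p = 0.0872). Apoe was at 4.45 and 4.24 CPM in CD8SP and 13.3 and 12.4 in ILTCkP (adjusted p = 0.0762). Lgmn was at 4.07 and 3.32 CPM in CD8SP and 18.4 and 7.26 in ILTCkP (adjusted p = 0.139). Tlr1 went the other way, at 13.4 and 17.6 CPM in CD8SP and 6.42 and 2.54 in ILTCkP (adjusted p = 0.132). DESeq2 called C1qa, Apoe and Lgmn higher and Tlr1 lower as well (adjusted p = 0.0171, 0.00531, 0.0196 and 0.0158), beside 8.82% of all genes called higher and 4.82% lower by that tool. Csf1r (adjusted p = 0.736), Lyz2 (0.660), Ctsb (0.338) and Ctsd (0.371) did not pass with either tool. Of 9 tested lipid-associated genes outside the 37, 3 (Lgals3, Cd9 and Plin2) rose in ILTCkP, with log2 changes of 6.36 ± 0.38, 2.52 ± 0.26 and 2.02 ± 0.38 (adjusted p = 0.00329, 0.00923 and 0.0460). Kit, from the mast cell list and a receptor of blood progenitors too, rose by 4.09 ± 0.31 (adjusted p = 0.00577), and 2 of 15 T cell genes, Cd2 and Thy1, changed by -1.08 ± 0.20 and -3.20 ± 0.56 (adjusted p = 0.0442 and 0.0375). The mast cell and basophil genes summed to 13.4 and 16.5 CPM in CD8SP and 207 and 293 in ILTCkP, and the part of such cells in the thymic changes was not tested. The edgeR test called 0 of 10 core, 3 resident, 4 cytokine and 8 neutrophil genes tested. At an unadjusted p under 0.05 it gave 1 core and 1 resident gene higher and 2 core, 1 resident and 1 cytokine gene lower, and DESeq2 called 1 core gene higher and 1 of each of these 3 lists lower. Of 7 tested monocyte genes edgeR called 1: Plac8, a gene of monocytes and lymphocytes, changed by -1.60 ± 0.25 (adjusted p = 0.0271). At edgeR's unadjusted p under 0.05, 2 monocyte genes were higher and 2 lower. DESeq2 called 2 of them higher and 1 lower, beside 8.82% and 4.82% of all genes.

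Macrophage genes outside the 37 were examined in 6 lists, which were also drawn up with earlier results of these data known. The macrophage core list holds Fc receptors, scavenger receptors and lysosomal genes. Ctss, cathepsin S, was at 679.6 and 519 CPM in the NK1.1- libraries, 1831 and 1303 in the NK1.1+ libraries and 173 and 319 in PD1+ Tconv. For this gene the 4 ILTCk libraries were above both PD1+ Tconv libraries. Fcgr2b, the inhibitory receptor for IgG, was at 73.2 and 78.2 CPM in the NK1.1- libraries, 131 and 895 in the NK1.1+ libraries and 3.28 and 15.3 in PD1+ Tconv. Fcgr3, an activating receptor for IgG that NK cells also carry, was at 86.2 and 85.5 CPM in the NK1.1- libraries, 218 and 702 in the NK1.1+ libraries and 9.05 and 13.4 in PD1+ Tconv. Both libraries of NK1.1+ ILTCk were above both PD1+ Tconv libraries for all 17 tested genes of this list. Marco, the gene left out of the test, was at 0 in 5 of the 6 libraries.

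With edgeR's adjusted test 0 of 18091 genes were called in each comparison of the retrogenic groups, so the counts here use an unadjusted p under 0.05, beside DESeq2's adjusted calls. At that level edgeR gave 2590 genes (14.3%) for NK1.1+ ILTCk and 2147 (11.9%) for NK1.1- ILTCk against PD1+ Tconv, and 712 (3.94%) for NK1.1+ against NK1.1- ILTCk. In NK1.1+ ILTCk over PD1+ Tconv, 17 of 17 core genes were higher at that level and 15 with DESeq2, beside 6.98% and 3.66% of all genes. Without NK1.1+ ILTCk replicate 2 edgeR gave 15. In NK1.1- ILTCk over PD1+ Tconv, 8 core genes were higher, and 6 with DESeq2, beside 5.96% and 2.16%. In NK1.1+ over NK1.1- ILTCk, 11 were higher, beside 2.18%, and DESeq2 called only Fcgr3 (adjusted p = 0.0436), beside 0.199%. The count was 2 without NK1.1- ILTCk replicate 2, 7 without NK1.1+ ILTCk replicate 1, and 5 without NK1.1+ ILTCk replicate 2 or NK1.1- ILTCk replicate 1. That of NK1.1- ILTCk over PD1+ Tconv was 13 without PD1+ Tconv replicate 2. The share of all genes higher at that level also moved: without PD1+ Tconv replicate 2 it was 9.17% for NK1.1+ and 10.1% for NK1.1- ILTCk over PD1+ Tconv, and for NK1.1+ over NK1.1- ILTCk it lay between 0.440% (without NK1.1- replicate 2) and 2.90% (without NK1.1+ replicate 1). Without NK1.1+ replicate 2 it was 3.17% for NK1.1+ ILTCk over PD1+ Tconv. A group left with 1 library was taken to vary like the others.

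The resident and type 2 list had its highest sum in NK1.1+ ILTCk replicate 2, at 5177 CPM against 515 in replicate 1, although Maf, a transcription factor that T cells also use, was highest in PD1+ Tconv replicate 2. Cbr2, a carbonyl reductase of resident macrophages, was at 45.9 and 194 CPM in the NK1.1- libraries, 51.1 and 1339 in the NK1.1+ libraries and 5.26 and 93.8 in PD1+ Tconv. Gas6, a ligand that bridges dying cells to phagocyte receptors, was at 76.3 and 201 CPM in the NK1.1- libraries, 60.9 and 718 in the NK1.1+ libraries and 12.8 and 61.7 in PD1+ Tconv. F13a1, the coagulation factor XIII A chain, was at 37.5 and 69.5 CPM in the NK1.1- libraries, 41.0 and 755 in the NK1.1+ libraries and 2.13 and 1.30 in PD1+ Tconv. All 3 were highest in NK1.1+ ILTCk replicate 2. Arg1, arginase 1, was at 169 and 123 CPM in the NK1.1- libraries, 151 and 357 in the NK1.1+ libraries and 30.6 and 83.3 in PD1+ Tconv. The PD1+ Tconv libraries were below all 4 ILTCk libraries for F13a1 and Arg1 and overlapped them for Cbr2 and Gas6. Of all genes, 6.98% were higher in NK1.1+ and 5.96% in NK1.1- ILTCk than in PD1+ Tconv at an unadjusted p under 0.05. With DESeq2 these shares were 3.66% and 2.16%. In NK1.1+ ILTCk over PD1+ Tconv, 12 of 14 genes were higher at an unadjusted p under 0.05, 11 with DESeq2, and 7 without NK1.1+ ILTCk replicate 2. In NK1.1+ over NK1.1- ILTCk 5 were higher, with a median log2 difference of 2.87, beside 2.18% of all genes and 0 with DESeq2, and without that library the count was 0 and the median -0.07. Without NK1.1+ ILTCk replicate 1 the count was 10 and without NK1.1- ILTCk replicate 1 it was 1. In NK1.1- ILTCk over PD1+ Tconv 3 genes were higher (DESeq2 3) and 1, Maf, was lower, and the count of higher genes was 2 without replicate 1 of PD1+ Tconv or replicate 2 of NK1.1- ILTCk, 6 without NK1.1- ILTCk replicate 1 and 7 without PD1+ Tconv replicate 2.

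In the cytokine and chemokine list the same library stood out. Ccl6 and Ccl9 are chemokines of the macrophage inflammatory protein family. Ccl6 was at 409 and 362 CPM in the NK1.1- libraries, 385 and 5922 in the NK1.1+ libraries and 6.402 and 16.9 in PD1+ Tconv. Ccl9 was at 202 and 172 CPM in the NK1.1- libraries, 218 and 1815 in the NK1.1+ libraries and 2.23 and 23.5 in PD1+ Tconv. Il1b, interleukin-1β, was by contrast at 134 and 146 CPM in the NK1.1- libraries, 165 and 129 in the NK1.1+ libraries and 6.24 and 49.9 in PD1+ Tconv, level across the 4 ILTCk libraries and above PD1+ Tconv. Cxcl10, an interferon-induced chemokine that many cells make, was at 61.5 and 196 CPM in the NK1.1- libraries, 94.2 and 255 in the NK1.1+ libraries and 128 and 209.8 in PD1+ Tconv, with the groups overlapping. In NK1.1+ ILTCk over PD1+ Tconv, 8 of 16 genes were higher at an unadjusted p under 0.05, beside 6.98% of all genes. In NK1.1- ILTCk over PD1+ Tconv 4 were, beside 5.96%, and in NK1.1+ over NK1.1- ILTCk 3, beside 2.18%. With DESeq2 the numbers were 6, 3 and 0, beside 3.66%, 2.16% and 0.199% of all genes. Without PD1+ Tconv replicate 2 edgeR gave 12 and 12 for the comparisons with PD1+ Tconv, where the share of all genes was larger as well, as given above. For NK1.1+ over NK1.1- ILTCk the count was 0 without NK1.1+ replicate 2 or either NK1.1- library, and without NK1.1+ replicate 1 it was 5.

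Genes of the lipid-associated and monocyte lists were also high in some PD1+ Tconv libraries. Spp1, osteopontin, was at 309 and 443 CPM in the NK1.1- libraries, 281 and 2186 in the NK1.1+ libraries and 72.1 and 390.5 in PD1+ Tconv. Lgals3, galectin-3, was at 322 and 556 CPM in the NK1.1- libraries, 629 and 1041 in the NK1.1+ libraries and 164 and 549.6 in PD1+ Tconv. PD1+ Tconv replicate 2 lay within the ILTCk range for both. At an unadjusted p under 0.05, 6.98% of all genes were higher in the NK1.1+ group and 5.96% in the NK1.1- group than in PD1+ Tconv. Of 11 lipid-associated genes, 4 and 1 were higher in these groups, and 1 (Abcg1) was lower in the NK1.1- group, beside 5.91% of all genes. With DESeq2, which called 3.66% and 2.16% of all genes higher, the numbers of higher lipid-associated genes were 3 and 1. Without NK1.1+ ILTCk replicate 2 the former was 2, without PD1+ Tconv replicate 2 they were 8 and 5, and without NK1.1- ILTCk replicate 1 the latter was 3. Ly6c2, the Ly6C marker of inflammatory monocytes that activated CD8 T cells also carry, was at 341 and 981 CPM in the NK1.1- libraries, 152 and 185 in the NK1.1+ libraries and 268 and 897 in PD1+ Tconv. Both NK1.1+ ILTCk libraries were below both PD1+ Tconv libraries for this gene, with a log2 difference of -1.79 ± 0.73 (edgeR adjusted p = 0.338), and the NK1.1- ILTCk libraries overlapped PD1+ Tconv. Of 9 monocyte genes, 1 was higher and 1 lower in NK1.1+ ILTCk than in PD1+ Tconv, beside 6.98% and 7.34% of all genes. In NK1.1- ILTCk, where 5.96% of all genes were higher, 4 monocyte genes were. Without NK1.1- ILTCk replicate 1, replicate 2 of the same group, or replicate 1 of PD1+ Tconv, this last count was 2. In NK1.1+ over NK1.1- ILTCk, 1 lipid-associated gene was higher and 1 monocyte gene lower, beside 2.18% and 1.75% of all genes. DESeq2 called 0 of either, beside 0.199% and 0.116%. Leaving out 1 library gave 0 to 2 lipid-associated genes higher and 0 to 3 monocyte genes lower, the most without NK1.1+ replicate 1 and NK1.1- replicate 1. For NK1.1+ ILTCk over PD1+ Tconv, 3 monocyte genes were higher without PD1+ Tconv replicate 2 and 2 without NK1.1+ replicate 1, and 0 were lower without either NK1.1+ library or without PD1+ Tconv replicate 2. DESeq2 called 1 monocyte gene higher in NK1.1+ and 2 in NK1.1- ILTCk than in PD1+ Tconv, and 3 and 1 neutrophil genes, beside 3.66% and 2.16% of all genes. In edgeR's unadjusted comparisons, 6.98% and 5.96% of all genes were higher in NK1.1+ and NK1.1- ILTCk than in PD1+ Tconv, and 2.18% in NK1.1+ than in NK1.1- ILTCk. Of 7 tested neutrophil genes, 3, 2 and 1 were higher in these comparisons. Leaving out 1 library gave 1 to 2, 0 to 2 and 0 to 2 of these neutrophil genes.

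**Figure D4:**
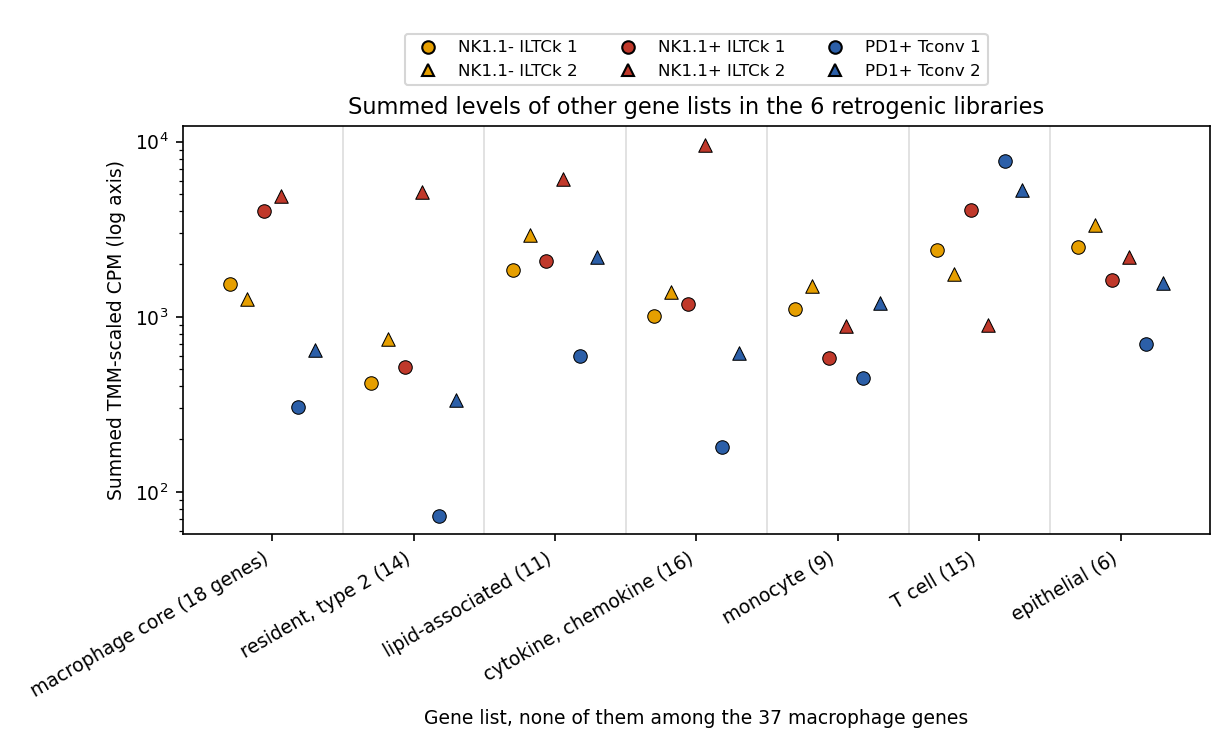
Summed TMM-scaled CPM (y axis, log scale) of 5 further macrophage or monocyte lists, the T cell list and an epithelial list in the 6 retrogenic libraries, with 1 point per library. The core list runs from 306 CPM in PD1+ Tconv replicate 1 to 4880.3 in NK1.1+ ILTCk replicate 2, where the resident list (5177 CPM) and the cytokine list (9581 CPM) stand well above the other 5 libraries.

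All 15 T cell genes lay below both PD1+ Tconv libraries in both NK1.1- libraries, and 11 of 15 in both NK1.1+ libraries, beside 22.7% and 20.8% of all genes. Of 15 genes, 7 were lower in the NK1.1+ group and 8 in the NK1.1- group than in PD1+ Tconv at an unadjusted p under 0.05, beside 7.34% and 5.91% of all genes. With DESeq2 the numbers were 6 and 4, beside 3.34% and 1.75%. Leaving out a library moved the former count between 5 (without replicate 2 of NK1.1+ or replicate 1 of PD1+ Tconv) and 15 (without NK1.1+ ILTCk replicate 1), and the latter between 2 (without NK1.1- ILTCk replicate 2) and 10 (without PD1+ Tconv replicate 2). In NK1.1+ against NK1.1- ILTCk 2 T cell genes were lower at that level, beside 1.75%, and 1 (Cd28) with DESeq2, beside 0.116%, and without NK1.1+ replicate 1 the edgeR count was 7. Lck, the kinase that starts T cell receptor signalling, was at 405 and 250.1 CPM in the NK1.1- libraries, 692 and 160.1 in the NK1.1+ libraries and 1074 and 757 in PD1+ Tconv.

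Markers of other cell types were measured beside these results. All 6 epithelial genes had counts in each of the 6 libraries, and their sum was 2515 and 3364 in the NK1.1- libraries, 1631 and 2182 in the NK1.1+ libraries and 702 and 1566 in PD1+ Tconv, against 8.28 to 10.1 CPM in the thymus. Epcam, the epithelial adhesion molecule, was at 723 and 1105 CPM in the NK1.1- libraries, 418 and 592 in the NK1.1+ libraries and 169 and 501 in PD1+ Tconv. Epithelial transcripts were therefore highest in NK1.1- ILTCk, and not in the NK1.1+ ILTCk libraries that held the most macrophage transcripts. The sum of 10 dendritic cell genes was 60.7 and 18.7 in the NK1.1- libraries, 38.3 and 57.9 in the NK1.1+ libraries and 16.9 and 16.3 in PD1+ Tconv, so that all 4 ILTCk libraries were above both PD1+ Tconv libraries. At an unadjusted p under 0.05, 3 dendritic cell genes were higher and 1 lower in NK1.1+ ILTCk than in PD1+ Tconv, beside 6.98% and 7.34% of all genes. In NK1.1- ILTCk 4 were higher than in PD1+ Tconv, beside 5.96%. In NK1.1+ against NK1.1- ILTCk 1 was lower, beside 1.75%. Cd209a, a lectin of dendritic cells, was at 22.9 and 2.60 CPM in the NK1.1- libraries, 1.97 and 34.4 in the NK1.1+ libraries and 0.637 and 0 in PD1+ Tconv, and Flt3, their growth factor receptor, at most 2.60. The sum of 7 B cell genes was 86.7 to 624 CPM, and that of 6 stromal and endothelial genes 11.7 to 156. The sum of 6 mast cell and basophil genes was 94.7 and 306 in the NK1.1- libraries, 109 and 203 in the NK1.1+ libraries and 29.8 and 56.2 in PD1+ Tconv, above PD1+ Tconv in all 4 ILTCk libraries, and most of it was Kit, a receptor that other progenitor and epithelial cells also carry, at 94.2 and 305 CPM in the NK1.1- libraries, 72.5 and 203 in the NK1.1+ libraries and 29.7 and 55.7 in PD1+ Tconv. The mast cell proteases Mcpt4 and Tpsb2 were at 16.98 and 13.1 CPM in NK1.1+ ILTCk replicate 1 and at most 0.319 and 0.0456 in the other 5 libraries. The part of these cell types in the macrophage gene levels was not tested.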

How the data were processed

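RNA of sorted mouse T cells was sequenced in bulk, and the authors deposited raw read counts per gene symbol in 2 tables, one of 4 thymic and one of 6 retrogenic libraries. The submitters' processing notes name mm10 and DESeq; the aligner, counter, strand setting and annotation were not given in the sources used here. The 4 single-cell libraries were not analysed here. The 37 genes and all lists were chosen with earlier results of these data known. All 37 may be named, and of each other list up to 4 genes with the highest mean CPM over the 6 retrogenic libraries, plus genes at 0. Maf, Cd28, Lck, Flt3, Mcpt4, Tpsb2, Abcg1, Cxcr2, Ly6g, Retnlg, Mmp8, Stfa2l1 and the thymic calls were named after their values were seen. Not every gene that this rule allows is reported here.

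Shares are percent of a library's total counts, with 95% Wilson intervals. CPM used TMM library sizes. Counts were tested with edgeR 4.0.16 (filterByExpr, TMM, robust glmQLFit, glmQLFTest) in R 4.3.3, within each table, with all 6 retrogenic libraries in 1 fit; genes were called at a Benjamini-Hochberg adjusted p under 0.05, and the SE is the log2 change over the root of F. DESeq2 1.42.0, RLE scaling, no filter, at least 50 counts in 2 libraries, a replicate block and leaving out each library were alternatives. The edgeR script was run on simulated counts with a pass condition only at a small set spread, so its power at these libraries' spread was not shown. Gene positions are from GENCODE M21 (GRCm38), which held all 37 genes. Depth was 16530085 to 32097301 counts a library.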

Additional observations from a re-analysis of the deposited data

How the results depend on the processing

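The count of genes called by edgeR moved with the settings. For ILTCkP against CD8SP it was 689, and 1997 with DESeq2, 2535 with no filter on low counts and 592 to 7017 with 1 library left out. From 0, NK1.1+ ILTCk against PD1+ Tconv moved to 1268 with DESeq2, 1249 with no filter and 0 to 35 with 1 library left out (35 without NK1.1+ ILTCk replicate 1), NK1.1- ILTCk against PD1+ Tconv to 707 and 799, and NK1.1+ against NK1.1- ILTCk to 57 and 167. A replicate block gave 2212, 755, 298 and 0 calls in the same order, and it added Adgre1, Tlr1, Lgmn and Apoe in the thymus. With 2 pairs a comparison, the libraries share only a number: same-numbered libraries' deviations correlated at 0.09 in the thymus and 0.33 to 0.36 in the retrogenic groups. Without Lyz2, Apoe and Ctsb the mean macrophage share was 0.0614% (CD8SP), 0.0828% (ILTCkP), 0.111% (PD1+ Tconv), 0.396% (NK1.1- ILTCk) and 1.48% (NK1.1+ ILTCk). Over the 19 genes under 1 CPM in the thymus, an alternative chosen after seeing the data, it was 9.69e-05%, 1.16e-04%, 0.0193%, 0.194% and 0.660% in the same order. On TMM library sizes the CD8SP share was 0.102% and the ILTCkP T cell share 1.07%. With 1 library left out, thymic log2 changes that none of the tests called spanned 0 for Cd68 (-0.38 to 0.83), Itgam (-0.92 to 0.27), Spi1 (-1.37 to 0.0038) and S100a9 (-2.32 to 0.17). RLE scaling kept all 111 mean levels of members in the 3 retrogenic groups within 1 SD, and plain CPM moved 10 of them. The causes of these moves were not tested. Counting error was at most 1.13% of a macrophage share and 1.39% of a T cell share, but the 19-gene shares of the thymus rest on few counts, and the 95% intervals of both CD8SP libraries overlapped.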
